A study of Mus musculus with 4 samples.

Results

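The genes described here encode enzymes that place sulfate on chondroitin, dermatan and keratan sulfate chains, and the epimerase that turns chondroitin into dermatan. They were taken by symbol from a list of 10: Chst11, Chst12, Chst14, Chst3, Chst7, Chst15, Ust, Dse, Chst1 and Chst2. The RefSeq accession that opens each probe set's identifier was matched to the current mouse symbol, which found 9 of the 10 genes, measured by 10 of 1246 probe sets (909 named genes in all). Many of the named genes encode enzymes of sugar chains, lectins, cytokines, growth factors or their receptors. Shares of all probe sets, percentiles and quartiles below are therefore over this limited set and not over all mouse genes. Dse, the epimerase, was not among the named probe sets and is not analysed here. No filter on low values was used, so all 10 probe sets entered every test. Ust had 2 probe sets, with identifiers ending in s and in x. Such endings can mean that probes match several transcripts. The 2 are called Ust (s) and Ust (x).

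The data came from 4 expression arrays. They were hybridised with RNA of vascular smooth muscle cells (VSMC), which contract the wall of arteries, from wild-type mice. All cells were grown in osteogenic medium, which turns them towards a bone-like state, and the control cells received that medium too. For 2 arrays the medium also held 0.4 mM streptozotocin, a glucosamine-bearing nitrosourea best known for its toxicity to pancreatic beta cells, and the other 2 arrays are its controls. The titles name 2 sources of cells, WT2 for replicate 1 and WTA for replicate 2, and each gave 1 treated and 1 control array. They are called cultures below. All 4 titles also carry the code 3w, which may be an age or a time and is not explained in them. Sex and vessel of origin were not stated in what was used here. Nor is it stated whether WT2 and WTA were separate animals, so p-values measure only the spread between these samples. The design text asks how genes of sugar chain synthesis respond to streptozotocin as VSMC calcify, and the Runx2 knockout cells it names are not analysed here.

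Chondroitin and dermatan sulfate are chains of alternating uronic acid and N-acetylgalactosamine that hang on core proteins such as versican, biglycan and decorin. Sulfotransferases in the Golgi move sulfate from the donor PAPS to set positions of these sugars, and the pattern influences which growth factors, lipoproteins and ions the chains bind. Such proteoglycans are abundant in the artery wall, where they are made largely by VSMC. Keratan sulfate, a chain of galactose and N-acetylglucosamine carried by lumican and fibromodulin, has sulfotransferases of its own.

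Values are on the log2 scale of the deposited RMA table, in which 1 unit is a doubling. The medians of the 4 arrays lay between 5.83 and 5.87 and their lower quartiles at 4.39 to 4.40, and precision is limited by having only 4 arrays. Across probe sets the control array of WT2 correlated with the WTA arrays at 0.982 and 0.977, the lowest of all pairs. The streptozotocin array of WT2 correlated with them at 0.988 and 0.985. Within the cultures the correlation was 0.988 in WT2 and 0.997 in WTA. None of the 8 smooth muscle markers listed (among them Acta2, Tagln and Myh11) was among the named probe sets, so the labelled cell type could not be checked in this way. Of 11 endothelial markers 3 were measured, and Pecam1 lay below the lower quartile on every array (3.793 to 3.997), as did Sele (3.14 to 3.41). The third, Esm1, stood at 3.99 and 4.48 in WT2 but at 8.999 and 9.327 in WTA, above the upper quartile, on the brighter of its 2 probe sets. With that probe set the summed level of the list was 5.334 and 5.504 in WT2 and 9.07 and 9.38 in WTA. The part of Esm1 in the culture differences given here was not tested. Of 13 leukocyte and macrophage markers 7 were measured, with a summed level of 8.28 to 8.62. Csf1r, the receptor for macrophage colony-stimulating factor, lay above the array medians at 7.40 to 7.92, Cd22 near them at 5.71 to 5.82 and Siglec1 at 5.24 to 5.47. Adgre1, Cd33 and Mrc1 lay below the lower quartile, between 2.79 and 4.09. Of 14 bone and cartilage markers 3 were measured and 0 were called in either comparison.

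The keratan sulfate enzyme gene Chst2 varied most among these genes. It was lower with streptozotocin than in control cells in both cultures, by 0.72 in WT2 and 0.58 in WTA, and lower in WTA than in WT2 by 0.88 (SE 0.10). Neither difference passed the test (limma adjusted p = 1 for streptozotocin and 0.0534 for the culture). Chst12 and Ust, which act on chondroitin and dermatan sulfate, were lower with streptozotocin in WT2 (by 0.54 for Chst12, 0.69 and 0.57 for the 2 probe sets of Ust) and differed by 0.09 or less in size in WTA. The other 6 genes differed by at most 0.25 in either culture.

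**Figure D1:**
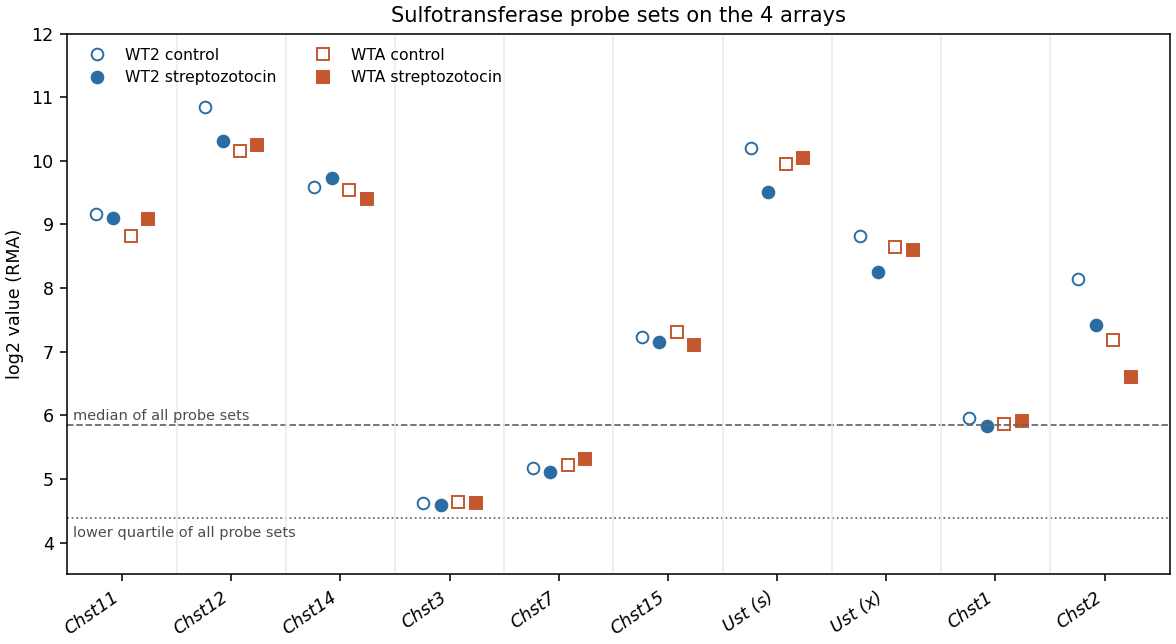
Log2 values (vertical axis) of the 10 sulfotransferase probe sets (horizontal axis) on each of the 4 arrays, 1 point per array, with blue circles for WT2, orange squares for WTA, open symbols for control and filled ones for streptozotocin. Dashed and dotted lines mark the median and the lower quartile of all probe sets, averaged over the arrays. Chst2 spans 6.61 to 8.14, while Chst3 stays between 4.58 and 4.63.

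Because Chst2, Chst12 and Ust are the genes whose values differed most between arrays, the 250 bases before their start sites are shown, from RefSeq on GRCm38.p6, read 5′ to 3′ on the gene's strand. Capitals mark the GC box GGGCGG or its reverse complement, a motif of Sp1-type factors.
Chst2 (chr9:95407271-95407520, minus strand): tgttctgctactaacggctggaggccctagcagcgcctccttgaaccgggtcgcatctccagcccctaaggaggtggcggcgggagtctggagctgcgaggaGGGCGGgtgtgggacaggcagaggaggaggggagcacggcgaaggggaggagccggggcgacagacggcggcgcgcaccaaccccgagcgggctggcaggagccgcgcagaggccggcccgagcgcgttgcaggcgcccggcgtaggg
Chst12 (chr5:140505359-140505608, plus strand): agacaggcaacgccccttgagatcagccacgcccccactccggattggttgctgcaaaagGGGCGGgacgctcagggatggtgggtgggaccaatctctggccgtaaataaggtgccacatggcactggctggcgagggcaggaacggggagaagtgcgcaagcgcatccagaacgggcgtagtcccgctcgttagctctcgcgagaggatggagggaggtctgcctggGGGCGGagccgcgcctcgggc
Ust (chr10:8518826-8519075, minus strand): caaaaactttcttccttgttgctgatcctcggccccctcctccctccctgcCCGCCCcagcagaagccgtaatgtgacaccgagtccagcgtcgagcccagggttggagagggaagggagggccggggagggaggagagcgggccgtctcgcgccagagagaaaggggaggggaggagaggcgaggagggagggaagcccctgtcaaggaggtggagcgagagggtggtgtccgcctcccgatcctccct
The window of Chst2 held 1 GC box, which begins 148 bases before the start, that of Chst12 held 2, at 190 and 21 bases, and that of Ust 1, at 199 bases. Windows were found for all 9 measured genes, and in 8 of them, all but Chst1, a GC box was present, against 32.7% of the 32851 windows in the table. The 10 windows of the 9 genes (Chst15 has 2) held 51.6% to 72.8% G and C, with 72.8% for Chst2, 65.6% for Chst12 and 66.4% for Ust, where the median of all windows was 52.4%. The core letters of the RUNX motif, TGTGGT, were searched on both strands because the design text names Runx2, and they were found in 0 of the 9 genes' windows, against 14.0% of all windows. The TATAAA letters were also found in 0 of the 9, against 12.4%, and the CArG box of smooth muscle genes in 0 of the 9, against 1.47%. The CCAAT box was found in 2 genes, Chst12 and Chst7 (33.8% of all windows). A match describes letters in this window, and a missing match says only that the letters are not in it.

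The first comparison set streptozotocin against control to ask which sulfotransferase genes respond to it. Limma called 0.0% of all probe sets at an adjusted p under 0.05 (0 of 1246) and 0 of the 10 sulfotransferase probe sets. At an unadjusted p under 0.05 it found 2.01% of all probe sets and again 0 of the 10. The median difference of the 10 was -0.09, with 7 lower and 3 higher, beside a median of -0.01 over all probe sets, of which 53.0% were lower. The lowest was Chst2 at -0.65 and the highest Chst11 at 0.10.

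Within the cultures each arm held 1 array, so differences there have no test. In WT2, 9 of the 10 probe sets were lower with streptozotocin, beside 55.6% of all probe sets, and 2, Chst2 and Ust (s), were at least 1.5-fold lower, beside 2.49% of all. In WTA 5 were lower and 5 higher, where 49.9% of all were lower, and 0 of the 10 were at least 1.5-fold lower, beside 1.69% of all. At least 1.5-fold higher were 0 of the 10 in WT2 and 0 in WTA, beside 4.82% and 0.642% of all. Lower in both cultures were 4 probe sets, Chst2, Ust (x), Chst15 and Chst3, and higher in both 0, beside 28.5% and 22.6% of all. The other 6 had opposite signs in the cultures, as did 47.7% of all probe sets. The small differences among these changed sign with the scaling: lower in both were 3 after median centring, where Chst3 in WTA was 0.0195, and 3 after quantile normalization, where Ust (x) in WTA was 0.006. Chst11 in WT2 was 0.0 after quantile normalization, which left 8 lower there. The median size of the difference was 0.14 in WT2 and 0.09 in WTA for the 10, close to the 0.13 and 0.10 over all probe sets.

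**Figure D2:**
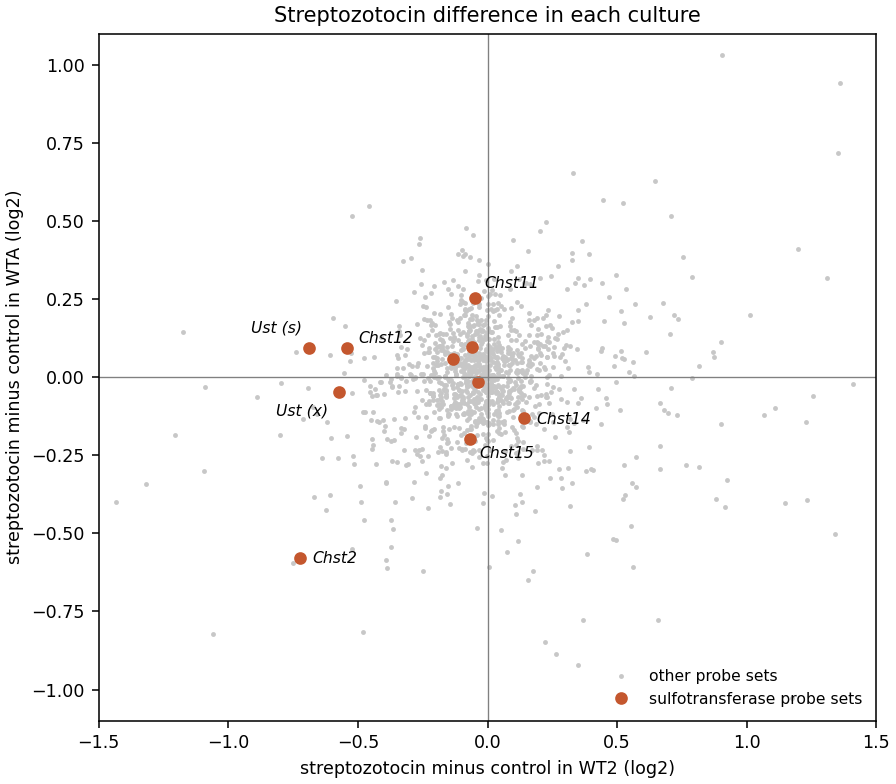
Streptozotocin minus control on the log2 scale in WT2 (horizontal axis) and in WTA (vertical axis), 1 point per probe set, with the 10 sulfotransferase probe sets in orange, those named that lie away from the centre, and all others in grey (21 probe sets lie outside the plotted range). Chst2 lies low on both axes, at -0.72 and -0.58, while Chst12 and both probe sets of Ust lie to the left near the horizontal line.

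The second comparison set WTA against WT2, in a fit with treatment and culture. Limma called 2.25% of all probe sets (28 of 1246) at an adjusted p under 0.05 and 0 of the 10. In fits with the culture alone, the count over all probe sets was 12 without the control array of WT2, 18 without its streptozotocin array and 0 without either array of WTA. At an unadjusted p under 0.05 the fit of all 4 arrays found 16.9% of all and 1 of the 10, Chst2. The median over the 10 was 0.00, with 5 lower and 5 higher in WTA, beside -0.02 over all probe sets. The median size was 0.13, beside 0.12 over all. The values of the cultures did not overlap for 5 of the 10 (Chst11, Chst12, Chst14 and Chst2 higher in WT2, Chst7 higher in WTA), beside 49.0% of all probe sets. Under both other scalings 5 did not overlap, with Chst3 in place of Chst11. This fit has 1 residual and 2.73 prior degrees of freedom. Each SE therefore rests more on a variance that limma shares over all probe sets than on the probe set's own. The latter measures how unlike the streptozotocin differences of the 2 cultures were. No spread among replicate cultures of 1 kind enters the p-values.

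**Figure D3:**
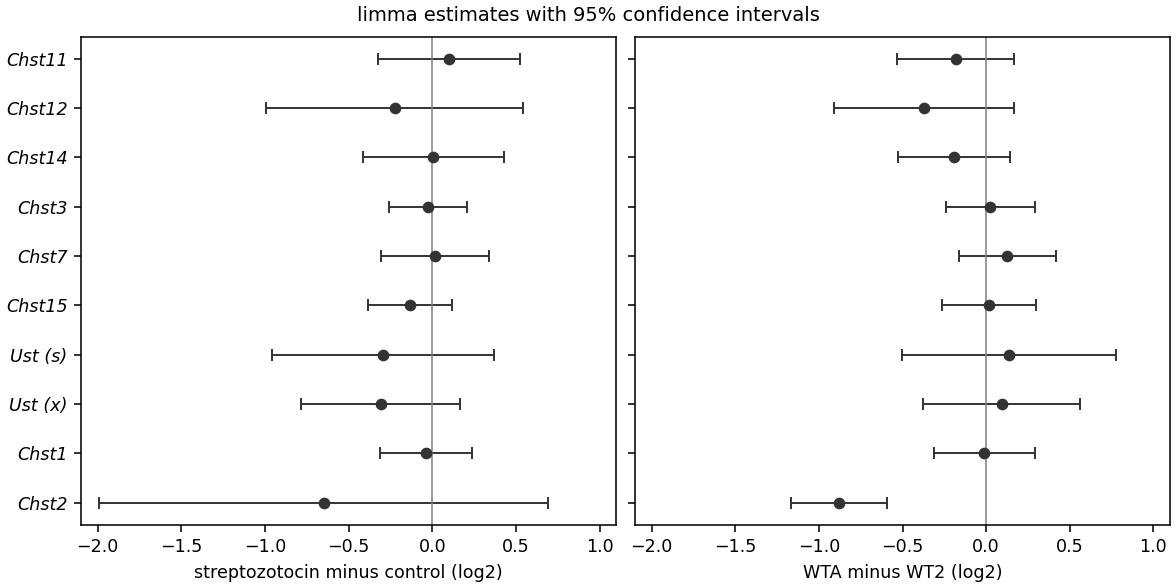
Limma estimates (points) and 95% confidence intervals (bars) for each of the 10 probe sets (vertical axis), streptozotocin minus control on the left and WTA minus WT2 on the right, both on the log2 scale. The interval of Chst2 runs from -1.99 to 0.69 on the left and from -1.16 to -0.59 on the right, which is the only interval of the 10 on the right that leaves out 0, while on the left none does.

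The 4-O-sulfotransferases put sulfate on N-acetylgalactosamine, Chst11 and Chst12 chiefly in chondroitin and Chst14 in dermatan sulfate. Chst11 had log2 values of 9.16 (WT2 control), 9.11 (WT2 streptozotocin), 8.82 (WTA control) and 9.08 (WTA streptozotocin). The lowest was the WTA control, and the other 3 lay within 0.08 of each other, so streptozotocin minus control was -0.05 in WT2 and 0.25 in WTA. The estimate over both was 0.10 (SE 0.15, 95% confidence interval -0.32 to 0.53) and turned to -0.065 without the control array of WTA. Here and below, a fit without an array holds treatment or culture alone. Its streptozotocin estimate therefore also holds part of the culture difference, and its culture estimate part of the streptozotocin difference. The culture difference was -0.18 (SE 0.12, interval -0.53 to 0.17).

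Chst12 stood at 10.85 (WT2 control), 10.31 (WT2 streptozotocin), 10.16 (WTA control) and 10.25 (WTA streptozotocin). Its control array of WT2 was the highest, and the other 3 lay within 0.15 of each other. The streptozotocin difference was -0.54 in WT2 and 0.09 in WTA, with an estimate of -0.22 (SE 0.27, interval -0.99 to 0.54). Without the control array of WT2, which had the lowest correlations with the WTA arrays, the estimate was 0.12. That value also holds part of the culture difference. The culture difference was -0.37 (SE 0.19, limma adjusted p = 0.451), with -0.69 between the control arrays and -0.06 between the streptozotocin arrays, and it was -0.10 without the control array of WT2.

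Chst14 stood at 9.59 (WT2 control), 9.73 (WT2 streptozotocin), 9.53 (WTA control) and 9.40 (WTA streptozotocin). With streptozotocin it was 0.14 higher in WT2 and 0.13 lower in WTA, which left an estimate of 0.01 (SE 0.15, interval -0.42 to 0.43). With 1 array left out it lay between -0.16 and 0.17. WTA minus WT2 was -0.19 (SE 0.12, limma adjusted p = 0.538).

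The 6-O-sulfotransferases of chondroitin, Chst3 and Chst7, were dim on this array. Chst3 stood at 4.62, 4.58, 4.63 and 4.62 (WT2 control, WT2 streptozotocin, WTA control and WTA streptozotocin), between the 27.9th and 29.6th percentile of the arrays' values. The first and the last of these are equal in every deposited digit. Such ties between arrays occurred in 36 probe sets (2.89%), 32 of them at or below the median level. Chst7 stood at 5.18, 5.12, 5.23 and 5.32 in the same order, with WTA above WT2 by 0.13 (SE 0.10, limma adjusted p = 0.644). At this level part of each value is background, which shrinks differences. The intervals of the streptozotocin estimate were -0.26 to 0.21 for Chst3 and -0.30 to 0.34 for Chst7, and for the culture difference of Chst3 it was -0.24 to 0.29.

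Chst15 and Ust add further sulfate to chains that are already sulfated, Chst15 at position 6 of 4-sulfated N-acetylgalactosamine and Ust at position 2 of the uronic acid. Chst15 stood at 7.23 (WT2 control), 7.16 (WT2 streptozotocin), 7.31 (WTA control) and 7.11 (WTA streptozotocin). Both streptozotocin arrays lay below both control arrays, as in Ust (x) and 13.8% of all probe sets, so that 2 of the 10 showed this order (after quantile normalization 1, Chst15). The differences were small, -0.07 in WT2 and -0.20 in WTA, with an estimate of -0.13 (SE 0.09, interval -0.38 to 0.12, limma adjusted p = 1). Which culture had the larger difference depended on the scaling, since after quantile normalization they were -0.253 in WT2 and -0.0467 in WTA. The culture difference was 0.02 (SE 0.10, interval -0.26 to 0.30).

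Ust (s) stood at 10.20 (WT2 control), 9.51 (WT2 streptozotocin), 9.94 (WTA control) and 10.04 (WTA streptozotocin). Ust (x) stood at 8.82, 8.25, 8.65 and 8.60 in the same order. On both probe sets the streptozotocin array of WT2 was the lowest, and the distance between the 2 probe sets stayed within 1.26 to 1.43 on the 4 arrays. They are not independent measurements, since both belong to 1 transcript and may share probes. The streptozotocin difference was -0.69 in WT2 and 0.09 in WTA for Ust (s), and -0.57 and -0.05 for Ust (x), whose value in WTA was 0.006 after quantile normalization. The estimates were -0.30 (SE 0.23, interval -0.96 to 0.37) and -0.31 (SE 0.17, interval -0.79 to 0.17). Without the streptozotocin array of WT2 they were -0.03 and -0.13, and without that of WTA -0.56 and -0.49. Without the control array of WT2 they were -0.17 and -0.22. The culture difference was 0.14 and 0.09, and it turned to -0.21 and -0.19 without the streptozotocin array of WT2. In WT2 both Chst12 and Ust were lower with streptozotocin. In Chst12 the control array of WT2 lay above the other 3, and on both probe sets of Ust that array was the highest of the 4 and the streptozotocin array of WT2 the lowest.

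Of the keratan sulfate enzymes, Chst1 puts sulfate on galactose and Chst2 on N-acetylglucosamine. Chst1 stood at 5.96 (WT2 control), 5.83 (WT2 streptozotocin), 5.86 (WTA control) and 5.92 (WTA streptozotocin), all near the array median. Its streptozotocin estimate was -0.04 (SE 0.10, interval -0.31 to 0.24) and its culture difference -0.01 (SE 0.11). The latter had no stable sign: it was 0.0093 after median centring and 0.0033 after quantile normalization.

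Chst2 stood at 8.14 (WT2 control), 7.41 (WT2 streptozotocin), 7.19 (WTA control) and 6.61 (WTA streptozotocin). In each culture the streptozotocin array lay below the control array, and both WTA arrays lay below both WT2 arrays, while the arms overlapped. With streptozotocin the mean was 7.01 ± 0.57 and in control cells 7.66 ± 0.67 (SD, n = 2 arrays each), an estimate of -0.65 (SE 0.47, interval -1.99 to 0.69, limma adjusted p = 1), or 1.57-fold lower. It was among the 12 lowest of the 1246 estimates. The fit without a block counts the culture difference as spread. A fit with the replicate block has 1 residual and 2.73 prior degrees of freedom, so its SE too rests mostly on the shared variance. With the replicate number as a block, the SE was 0.10, the interval -0.94 to -0.36 and the unadjusted p 0.00372, but limma's adjusted p over all probe sets was 0.585, and 6.42% of all probe sets had an unadjusted p under 0.05 in that fit. Without the control array of WT2 the estimate was -0.175 and without the streptozotocin array of WTA -0.25. It was -1.13 without the control array of WTA and -1.05 without the streptozotocin array of WT2. Such values also hold the culture difference, since the cultures are then unequal in the arms.

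Between the cultures Chst2 was 1.84-fold higher in WT2, with means of 7.77 in WT2 and 6.90 in WTA. WTA minus WT2 was -0.95 between the control arrays and -0.81 between the streptozotocin arrays, which differ by 0.14. The estimate of -0.88 (SE 0.10, interval -1.16 to -0.59) missed the threshold over all probe sets (limma adjusted p = 0.0534) and passed it after median centring, at -0.86 (adjusted p = 0.0463). Over all alternatives the limma adjusted p ran from 0.0463 to 0.799. In fits with the culture alone, leaving out the control array of WT2 gave -0.52 and the streptozotocin array of WTA -0.59. Leaving out the control array of WTA gave -1.17 and the streptozotocin array of WT2 -1.24. These values also hold part of the streptozotocin difference, since the arms are then unequal in the cultures.

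The genes whose 4 values, centred on their mean, lay nearest to those of Chst2 were Pdgfra (distance 0.24 on the log2 scale), Colec12 (0.24) and Il17rd (0.26), where Chst2 itself lay 1.09 from a flat pattern. Pdgfra, a receptor for platelet-derived growth factor and a fibroblast marker, stood at 12.54 (WT2 control), 12.05 (WT2 streptozotocin), 11.64 (WTA control) and 11.30 (WTA streptozotocin). Colec12, a scavenger receptor, stood at 7.91, 7.27, 6.79 and 6.53 in that order, and Il17rd, an antagonist of fibroblast growth factor signalling, at 7.68, 6.93, 6.98 and 6.39. On that probe set of Colec12 the streptozotocin differences were -0.64 in WT2 and -0.26 in WTA, and the culture difference -0.93. On another probe set of this gene they were -0.43, -0.28 and -0.69. The likeness is over 4 arrays of 2 cultures.

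Of 6 fibroblast markers listed 4 were measured (Pdgfra, Dcn, Lum and Cd34). All 4 were lower with streptozotocin in both cultures, beside 28.5% of all probe sets. Their summed level (log2 of the sum of the linear values) was 13.93 on the WT2 control array, 13.48 on the WT2 streptozotocin array, 13.28 on the WTA control array and 12.91 on the WTA streptozotocin array, the same order of arrays as for Chst2. That order, from highest to lowest, was also that of 10.7% of all probe sets. Dcn and Pdgfra carry most of the sum (12.73 and 12.54 on the WT2 control array, beside 10.51 for Lum and 10.46 for Cd34). Pdgfra was picked above for its likeness to Chst2, so the order of the sum is not a separate observation. Cd34 was lower in WTA than in WT2 by 1.07 (SE 0.09, limma adjusted p = 0.0445), and Pdgfra differed by -0.82 (adjusted p = 0.0631). Dcn differed by -0.43 (limma adjusted p = 0.156) and Lum by -0.23 (limma adjusted p = 0.761). Unlike Chst2, Lum was lowest on the WT2 streptozotocin array. None of the 4 passed the test for streptozotocin (limma adjusted p = 1), and Col1a1 and Thy1 had no named probe set. The part of these markers in the values of Chst2 was not tested. In RNA from whole cultures, fewer cells of a type and less RNA per cell cannot be told apart.

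**Figure D4:**
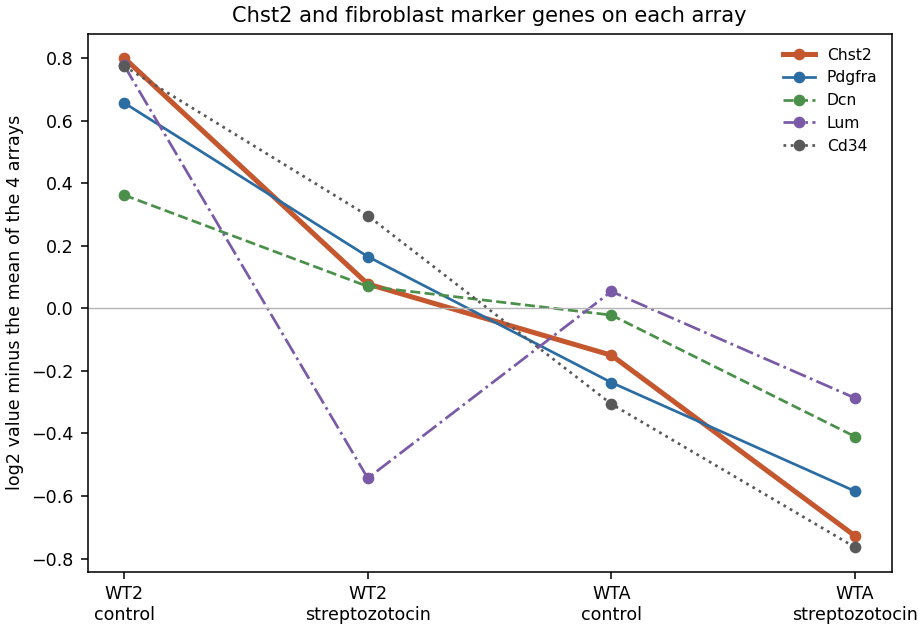
Log2 value minus the gene's mean over the 4 arrays (vertical axis) for Chst2 (thick line) and the 4 measured fibroblast markers on each array (horizontal axis), 1 point per array, with lines that only join the points of a gene. Chst2, Pdgfra, Dcn and Cd34 have the same order of arrays, highest on WT2 control and lowest on WTA streptozotocin, while Lum is lowest on WT2 streptozotocin.

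The genes around these enzymes were taken from lists chosen with earlier results of these data known, with the brightest probe set standing for each gene. Of the 56 genes measured in the 6 lists, limma called 0 for streptozotocin at an adjusted p under 0.05. It found 1, Csgalnact1, at an unadjusted p under 0.05, beside 2.01% of all probe sets. Sulfate donor supply was measured by 3 of 8 genes. Of these, Papss2, which makes PAPS, differed by -0.46 in WT2 and 0.55 in WTA. Its paralog Papss1 differed by -0.12 and -0.21. The PAPS transporter gene Slc35b3 differed by 0.02 and 0.07.

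In the list of linker and chain-building enzymes, 10 of 12 genes were measured, with a median streptozotocin difference of -0.06. In both cultures 5 were lower and 2 higher, beside 28.5% and 22.6% of all probe sets. Csgalnact1, which starts chondroitin chains, differed by 1.20 in WT2 and 0.41 in WTA. Its paralog Csgalnact2 differed by -0.47 and -0.11. B3galt6, a linker enzyme, differed by -0.15 and -0.35, and was lower in WTA than in WT2 by a value that missed the threshold (-0.60, SE 0.11, limma adjusted p = 0.107). Next in size for the culture were Chsy1, a chondroitin synthase, at -0.27, and B3gat3, a linker glucuronosyltransferase, at 0.23. The culture called 0 of the 10 genes, beside 2.25% of all probe sets.

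Among the other sulfotransferases of these families, with the dermatan epimerase paralog Dsel, 9 of 11 were measured. Gal3st2, which sulfates galactose, was higher in WTA by 0.93 (SE 0.10, limma adjusted p = 0.0445) and was the only gene of this list that passed, at dim values of 4.57 and 4.81 in WT2 and 5.46 and 5.78 in WTA. Dsel had the same order of arrays as Chst2, as did 10.7% of all probe sets. It stood at 9.44 (WT2 control), 8.99 (WT2 streptozotocin), 8.51 (WTA control) and 8.28 (WTA streptozotocin). Its culture difference of -0.81 (SE 0.11) missed the threshold (limma adjusted p = 0.0702). The N-acetylgalactosamine 4-O-sulfotransferases Chst8 and Chst9 were below the lower quartile on all arrays, with a culture difference of -0.18 for Chst8 and a streptozotocin difference of -0.14 for Chst9.

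In the list of keratan chain enzymes 5 of 5 genes were measured, with 0 called for the culture and a median streptozotocin difference of 0.03. These values also count B4gat1, a glucuronyltransferase rather than a builder of keratan chains. B4galt1, a galactosyltransferase, differed by 0.23 in WT2 and -0.02 in WTA. B3gnt2, which extends such chains, differed by -0.06 and 0.22, and the galactosyltransferase B4galt4 by 0.05 and -0.18. Of the breakdown enzymes 8 of 12 were measured, with a median streptozotocin difference of -0.09. In both cultures 6 were lower and 1, Hexa, was higher, beside 28.5% and 22.6% of all probe sets. Arsb, the lysosomal enzyme that removes 4-sulfate, differed by -0.44 in WT2 and -0.20 in WTA. Its culture difference was -0.77 (SE 0.11, limma adjusted p = 0.0804). The values were 10.68 (WT2 control), 10.24 (WT2 streptozotocin), 9.79 (WTA control) and 9.59 (WTA streptozotocin), in the order of Chst2. That order is not particular to Dsel and Arsb: other listed genes, among them Papss1, B3galt6, Chsy1, Idua, Hyal2, Fmod and Dcn, had it too. Next in size for the culture were the hyaluronidases Hyal1 (0.28) and Hyal2 (-0.22), and for streptozotocin the lysosomal enzymes Idua (-0.14) and Glb1 (-0.13).

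Core proteins were measured by 21 of 27 genes, with a median streptozotocin difference of 0.05. In both cultures 5 were lower and 8 higher, beside 28.5% and 22.6% of all probe sets. The largest streptozotocin differences were those of Lum, Thbd and Cd44. The keratan sulfate carrier Lum differed by -1.32 in WT2 and -0.34 in WTA. Thbd, the thrombin receptor thrombomodulin, differed by 1.01 and 0.20, and the hyaluronan receptor Cd44 by 0.75 and 0.38. Fmod, another keratan sulfate carrier, differed by -0.49 and -0.40. Of the chondroitin and dermatan sulfate carriers, Dcn differed by -0.29 and -0.39, and Bgn by -0.0042 and 0.0005. Bgn stood at 13.43 to 13.49, near the highest values of the arrays (13.895 to 13.989). Vcan differed by 1.15 in WT2 and -0.40 in WTA. For the culture, 1 of the 21 passed, Esm1, higher in WTA by 4.93 (SE 0.10, limma adjusted p = 0.00304), a gene that also stands in the endothelial list. On its other, dimmer probe set Esm1 was higher in WTA by 2.93. Next in size were Srgn, which encodes serglycin, at -1.49 (SE 0.34, limma adjusted p = 0.16), and Thbd at 1.33 (SE 0.23, limma adjusted p = 0.104).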

How the data were processed

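Per the labels' protocols, Trizol-extracted RNA was made into biotinylated cRNA for Affymetrix arrays. The authors deposited log2 values per probe set. The submitters' processing notes name RMA, with no version or settings. RMA usually equalises the distributions of the arrays, which would hide a shift common to most genes, and dim values hold background. Of 1246 probe sets 963 had 1 symbol through RefSeq accessions (GRCm38.p6 table, names only), 283 had none, and 48 genes had over 1 probe set.

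Groups, replicates and cultures came from the sample titles. Replicate 1 is WT2 and replicate 2 WTA in both arms, so the replicate number pairs arrays, and arrays of 1 number deviated from their arm means together (correlation 0.600). Members, lists and tests were chosen with earlier results of these data known. Fits used limma 3.58.1 in R 4.3.3 (lmFit, eBayes) with Benjamini-Hochberg adjustment over all 1246 probe sets and a threshold of 0.05. The streptozotocin fit had no block (2 residual and 1.68 prior degrees of freedom), and the culture fit held treatment and culture (1 and 2.73). The fits were tested on simulated data. All members were named, and, of each pathway list, the up to 3 genes with the largest difference in each comparison. Other genes were named after their values were seen (Hexa, Fmod, Dcn, Bgn, Vcan). The values of 1 leukocyte marker are not reported here.

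Promoter windows are the 250 bases before each start in the RefSeq table. Searched on both strands were 10 motifs: the RUNX core (TGTGGT), the GC box (GGGCGG), the TATA box (TATAAA), the CCAAT box, an E-box (CACGTG), the TEAD motif (GGAATG), the CRE (TGACGTCA), a SMAD palindrome (GTCTAGAC), the CArG box and the NF-kB motif. The NF-kB motif was found in the window of Ust, the E-box in that of Chst14 and the TEAD motif in those of Chst1 and Chst15, while the CRE and the SMAD palindrome were found in 0. Matches that overlap were counted each, and a place that matches on both strands once. Alternatives were a fit with the replicate block, fits without 1 array, an intensity trend, other scalings (median centring and quantile normalization), only probe sets above the median level, the culture alone and a threshold of 0.1.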

Additional observations from a re-analysis of the deposited data

Results flagged for a closer look

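For 6 probe sets the streptozotocin difference had opposite signs in the cultures, each from 1 array per arm. The difference between the cultures was not tested, since no residual degrees of freedom are left, and 47.7% of all probe sets had opposite signs. The difference in WTA minus that in WT2 was 0.78 for Ust (s), which adds 2-O-sulfate to uronic acid, while Ust (x) of the same gene was lower in both cultures (in WTA -0.0472, but 0.006 after quantile normalization). It was 0.63 for Chst12 and 0.30 for Chst11, which sulfate position 4 in chondroitin. For Chst14, their dermatan counterpart, it was -0.27. For the keratan enzyme Chst1 it was 0.19, and for the dim Chst7 0.16.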

How the results depend on the processing

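The streptozotocin count of 0 probe sets, overall and among the 10, held under every alternative run (replicate block, each array left out, both normalizations, the filter, the trend and the threshold of 0.1), with 5 to 80 probe sets at an unadjusted p under 0.05. The replicate block changed no call: it gave 0 probe sets in all and 0 of the 10, with estimates equal to those without it. For the culture, the count of 28 became 13 with the culture alone, 2 of 623 with the filter on dim probe sets, 8 after quantile normalization and 64 at a threshold of 0.1, and 0 to 18 with 1 array left out (0 without either WTA array). Among the 10 it became 1, Chst2, after median centring and at the threshold of 0.1, and was 0 to 0 with 1 array left out. The filter kept 8 of the 10, all but Chst3 and Chst7. Under the other scalings the sign turned for the culture difference of Chst1 (0.0093 after median centring, 0.0033 after quantile normalization) and, in WTA, for the streptozotocin difference of Chst3 (0.0195 after median centring) and Ust (x) (0.006 after quantile normalization). With 1 array left out, streptozotocin minus control ran from -0.065 to 0.27 for Chst11, from -0.57 to 0.12 for Chst12, from -0.16 to 0.17 for Chst14, from -0.085 to 0.12 for Chst7 and from -0.092 to 0.016 for Chst1. WTA minus WT2 ran from -0.081 to 0.12 for Chst15, from -0.21 to 0.48 for Ust (s), from -0.19 to 0.38 for Ust (x) and from -0.079 to 0.056 for Chst1. Each fit with 1 array left out held treatment or culture alone. Its streptozotocin estimate therefore also held part of the culture difference, and its culture estimate part of the streptozotocin difference. Other causes of these changes were not tested, and an arm or culture left with 1 array is assumed to vary like the other. Dim signals limit Chst3 and Chst7.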
